A study of Homo sapiens with 9 samples.

Results

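The hypoxia response and glycolysis genes of U251 cells, an established human glioblastoma line, were followed through a knockdown of MSI1 (Musashi-1), an RNA-binding protein. The set holds 39 of the 20848 genes in the count tables. It consists of 37 genes taken by symbol, PKM (listed in the files as PKM2) and KDM3A. The genes were divided by role into 18 HIF and HIF target genes (4 of HIF and oxygen sensing, 14 targets) and 21 glycolysis genes (15 enzymes, 3 glucose or lactate transporters and 3 regulator kinases). The RNA-seq arm had 3 libraries of wild-type control U251 cells and 3 of U251 cells labelled Msi1 KD. The labels do not say by what means MSI1 was lowered, nor whether the replicates were separate cultures, so the p-values measure only the spread between these libraries, which may be technical. A further 3 libraries were iCLIP of wild-type cells with an antibody to MSI1. In iCLIP, protein is crosslinked to RNA by ultraviolet light and the crosslinked positions are read from where reverse transcription stops. The cells are a single cultured line, and no oxygen level, time or dose is given in the labels.

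The hypoxia response is driven by the HIF transcription factors, heterodimers of an oxygen-labile alpha subunit (HIF1A or EPAS1) and the stable ARNT subunit. With oxygen present, the prolyl hydroxylases encoded by EGLN1 and EGLN3 mark the alpha subunits for VHL-dependent destruction, so most of this control acts on the protein and is not read by mRNA levels. HIF targets include most glycolytic enzymes and glucose transporters, and glioblastoma cells are known for high aerobic glycolysis.

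The libraries held from 32919299 to 47277016 reads counted in genes. MSI1 itself, the check of the labels, stood at 16.0, 17.7 and 7.59 CPM (counts scaled to library size) in the controls and at 3.15, 5.11 and 2.26 CPM in the knockdown libraries. Every knockdown library was below every control, with a log2 fold change of -1.97 ± 0.42 (SE), an edgeR adjusted p of 0.0699 and, with the replicate number as a block, of 0.00279. Without control replicate 3 the adjusted p was 0.000372, and over the other omissions it reached 0.306. Control replicate 3 stood apart from the rest on the first principal component (62.5% of the variance), at 80.6 against -40.9 to 10.3 for the other libraries. In that library the first exon took a median 0.391% of the counts of 34 members with enough exons and counts, against 1.36% to 2.04% in the other libraries. The low share was not particular to the members. Over 8860 tested genes it was 0.479% in that library, against 1.02% to 1.53% in the others. Control replicate 3 was also the lowest library for 15 of the 21 glycolysis genes, against 4853 of all 13856 tested genes, and the part of the first-exon shares in the results was not tested. Of 12 astroglial and glioma markers 10 passed the count filter, summing to 6884 to 7876 CPM in controls and 6782 to 7646 in knockdown libraries, with AQP4 and CHI3L1 near 0. Most of this sum was CD44 and VIM, at means of 3773 and 2579 CPM in controls, so it says little of the other markers. NES had a control mean of 759 CPM, while GFAP stood at 18.6 to 106, SLC1A3 at 10.5 to 14.8 and S100B at 1.11 to 2.28 CPM in controls. SOX2 was called lower after knockdown (log2 fold change -0.76, edgeR adjusted p = 0.0432). Leukocyte markers summed to 4.89 to 8.08 and 6.14 to 7.87 CPM, with ITGAM and CD3E at 0 in all 6 libraries. Most of the leukocyte sum was CD68, at 3.95 to 6.54 CPM in controls and 3.70 to 5.10 CPM after knockdown. Endothelial markers summed to 13.7 to 14.2 CPM in controls and 22.7 to 25.8 CPM after knockdown, 6 of the 7 being under 1 CPM in controls. Nearly all of this sum and of its rise was the single gene KDR, at 12.9 to 14.3 CPM in controls and 21.1 to 24.7 CPM after knockdown. Neuronal markers summed to 1011 to 1386 and 1152 to 1468 CPM. Most of the neuronal sum was NEFL, at 969 to 1335 CPM in controls and 1053 to 1365 CPM after knockdown. GAD1 stood at 36.8 to 42.2 CPM in controls, and STMN2 had 0 counts in all 6 libraries.

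In the comparison of knockdown with control, EGLN3 fell and CA9 rose, both beyond the spread between libraries. These were the only 2 of the 39 members that passed an edgeR quasi-likelihood test at an adjusted p of 0.05, with all 39 above the low-count filter. In the same fit 1.67% of the 13856 tested genes passed, 0.772% higher and 0.902% lower. A further 7 members had an unadjusted p under 0.05, for 9 in all, where 2154 of the 13856 tested genes had one, and DESeq2 called 4, 3 higher and 1 lower (of all genes 5.76%, 3.19% higher and 2.57% lower). Among the 18 HIF and HIF target genes 2 passed, with a median log2 fold change of 0.33. Among the 21 glycolysis genes 0 passed, with 3 at an unadjusted p under 0.05 (a share near that of all genes), 1 called by DESeq2 and a median of 0.27. The median of all tested genes was -0.04, and 45.4% of them had a positive log2 fold change against 30 of the 39 members. In bulk libraries, a lower share of cells with a transcript and less of it per cell cannot be told apart.

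With the replicate number as a block, 15 of the 39 members passed, 14 higher and 1 lower, where 17.3% of all genes passed, 7.04% higher and 10.3% lower. The 15 were 9 HIF and HIF target genes (8 higher, 1 lower) and 6 glycolysis genes, all higher. Of the 15, 13 did not pass the edgeR group comparison of all 6 libraries without the block. Without control replicate 3, 10 members passed, 9 higher and 1 lower, where 7.31% of all genes passed, 4.47% higher and 2.84% lower. With the block and DESeq2 size factors, 17 passed, 16 higher and 1 lower, where 16.4% of all genes passed, 8.39% higher and 8.05% lower. Leaving out any other single library left 0 members past the threshold, where 0 to 10 of all tested genes passed.

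**Figure D1:**
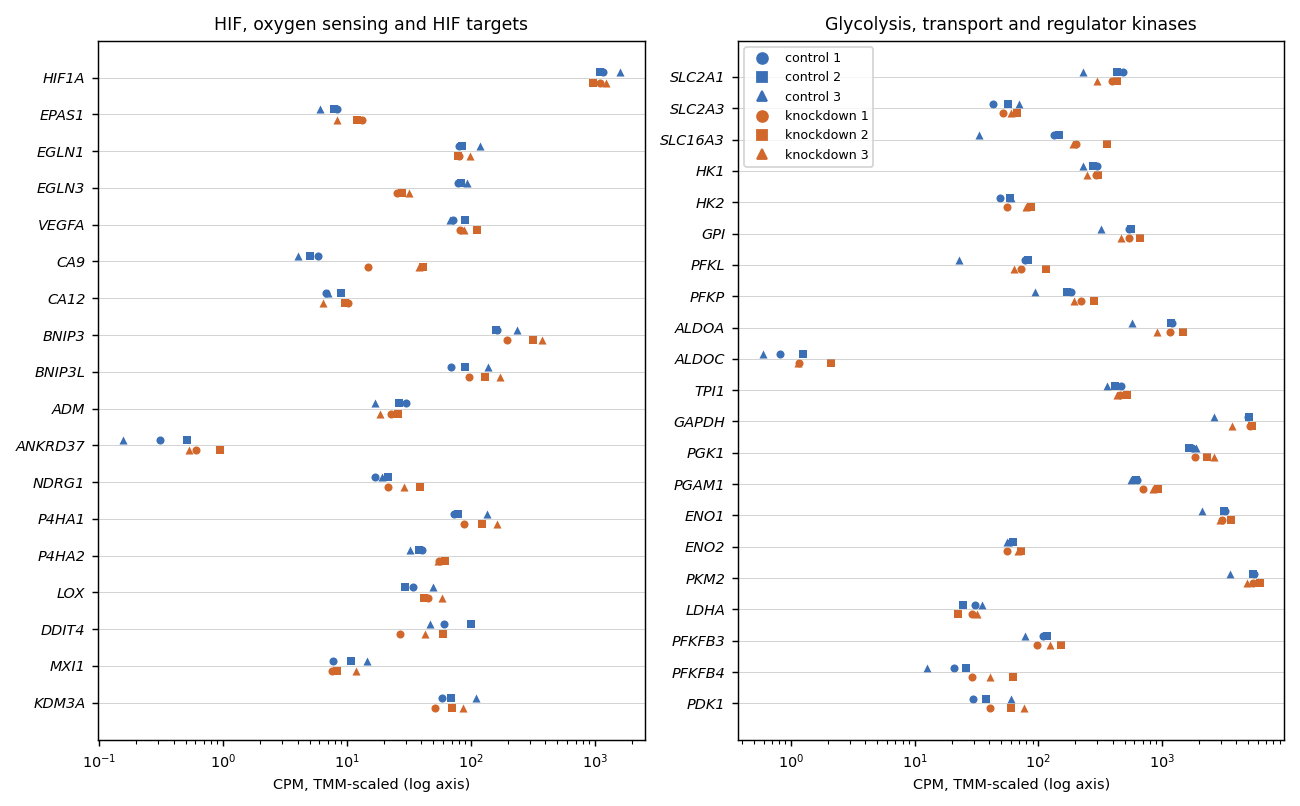
Level of each member in every RNA-seq library, in CPM on a log axis, with controls in blue and knockdown libraries in orange, symbols for the replicate number, and HIF genes and glycolysis genes in separate panels. All knockdown points lie above the control points for CA9 and below them for EGLN3, while the groups overlap for 13 of the 15 glycolytic enzymes.

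EGLN3, the prolyl hydroxylase that is itself a HIF target and acts as a feedback brake on HIF, lies at chr14:33463172-33490035 (hg18, as are all gene positions below). Its level was 78.9, 83.7 and 93.7 CPM in controls 1 to 3 and 25.6, 27.9 and 31.5 CPM in knockdown replicates 1 to 3. All knockdown libraries lay below all controls, and the 3 same-numbered pairs differed by nearly the same amount, -1.62, -1.58 and -1.57 on the log2 scale. The means were 85.4 ± 7.55 and 28.3 ± 2.96 CPM (SD, n = 3 each), and the log2 fold change was -1.59 ± 0.15 (SE; edgeR adjusted p = 0.00873, with the block 0.000947). Without control replicate 3 the adjusted p was 0.000147, and over the 5 other single omissions, which left 0 to 10 of all genes called, it reached 0.103.

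CA9 encodes carbonic anhydrase IX, a cell-surface enzyme that hydrates carbon dioxide and is widely used as a marker of HIF activity. It lies at chr9:35663915-35671154. CA9 stood at 5.86, 5.07 and 4.05 CPM in the controls and at 14.7, 41.1 and 37.9 CPM in the knockdown libraries. The groups did not overlap, although knockdown replicate 1 was well below the other knockdown libraries. The means were 4.99 ± 0.908 and 31.2 ± 14.4 CPM (SD, n = 3 each), for a log2 fold change of 2.64 ± 0.40 (SE; edgeR adjusted p = 0.0302, with the block 0.0115). Without control replicate 3 the adjusted p was 0.000854, and over the other omissions it reached 0.131.

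The alpha subunits and the main oxygen sensor had no call in the group comparison. HIF1A, the ubiquitous alpha subunit, stood at 1161, 1099 and 1594 CPM in the controls and 1110, 976 and 1234 CPM in the knockdown libraries, and the groups overlapped. Its log2 fold change was -0.22 ± 0.18 (SE; adjusted p = 0.667), and the sign turned to 0.03 without control replicate 3. EPAS1, the alpha subunit found in fewer cell types, stood at 8.29, 7.89 and 6.10 CPM in the controls and 13.3, 12.1 and 8.35 CPM after knockdown. The EPAS1 groups did not overlap, with a log2 fold change of 0.60 (adjusted p = 0.292, with the block 0.0327). Per kilobase of exon the control level of HIF1A was 316 ± 66.5 CPM and that of EPAS1 1.44 ± 0.226 CPM (SD, n = 3). For EGLN1, the sensor that sets most HIF turnover, the difference was -0.13 on the log2 scale (adjusted p = 0.842).

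Of the other 13 HIF targets, 6 passed with the block, all higher, where 7.04% of all genes passed higher. None passed the edgeR group comparison of all 6 libraries. P4HA2, a collagen prolyl hydroxylase subunit, came nearest in the group comparison. It stood at 40.1, 38.1 and 32.4 CPM in controls and 55.6, 62.4 and 53.9 CPM after knockdown, with no overlap. Its log2 fold change was 0.64 ± 0.15 (SE; edgeR adjusted p = 0.0919, with the block 0.012, DESeq2 0.00629). P4HA1, the paralogous subunit, stood at 73.3, 79.0 and 136 CPM in controls and 88.8, 123 and 163 CPM after knockdown, so that the groups overlapped while each pair was higher (0.38, adjusted p = 0.654, block 0.0472). LOX, which crosslinks collagen and elastin, stood at 34.4, 29.4 and 49.1 and then 45.4, 41.6 and 58.3 CPM (0.36, adjusted p = 0.548, block 0.0472). In all 3 genes each knockdown library was above its same-numbered control, but they are named here for passing the block fit, which rests on these same differences. Of the 18 HIF and HIF target genes 10 were higher in all 3 pairs and 4 lower, against 23.5% and 32.4% of all tested genes. P4HA1 had 0.78 without control replicate 3 (adjusted p = 0.049), LOX 0.67 (0.0474 in the same fit) and P4HA2 0.61 (0.0293). P4HA1 went to 0.64 without knockdown replicate 1, 0.21 without control replicate 1 and 0.19 without knockdown replicate 3, and LOX to 0.21 without control replicate 2.

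The mitophagy receptors BNIP3 and BNIP3L were also higher in each same-numbered pair. They and NDRG1 are likewise named for passing the block fit, which rests on these same differences. BNIP3 stood at 163, 159 and 234 CPM in controls and 195, 316 and 376 CPM after knockdown. In BNIP3 control replicate 3 exceeded knockdown replicate 1, so that the groups overlapped (0.67 ± 0.27, adjusted p = 0.287, block 0.0304). BNIP3L, its paralog, stood at 68.8, 90.4 and 138 CPM and then 97.5, 131 and 171 CPM (0.43, adjusted p = 0.591, block 0.0173). NDRG1, a stress-responsive cytoplasmic protein gene, stood at 17.0, 21.5 and 19.0 CPM and then 21.4, 38.6 and 28.7 CPM (0.62, adjusted p = 0.27, block 0.0326). BNIP3 had 0.94 without control replicate 3 (adjusted p = 0.0236) and BNIP3L 0.80 (0.0451 in the same fit). BNIP3L went to 0.68 without knockdown replicate 1, 0.22 without control replicate 1 and 0.26 without knockdown replicate 3, and NDRG1 to 0.38 without knockdown replicate 2. In BNIP3, BNIP3L and NDRG1 alike knockdown replicate 1 lay within the control range.

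VEGFA, the angiogenic growth factor, stood at 72.5, 90.0 and 67.4 CPM in controls and 81.2, 113 and 87.8 CPM after knockdown. The VEGFA groups overlapped (0.30 ± 0.18, adjusted p = 0.532, block 0.0643). The remaining 6 targets passed in neither fit. For DDIT4, an inhibitor of mTORC1 signalling, the log2 difference was -0.68 (adjusted p = 0.456, block 0.066), for the MYC antagonist MXI1 -0.24, for the histone demethylase KDM3A -0.19 and for the vasodilator peptide gene ADM -0.13. CA12, another membrane carbonic anhydrase, had 0.21. ANKRD37, at 0.156 to 0.514 CPM in controls and 0.528 to 0.944 CPM after knockdown, had 1.06 (adjusted p = 0.349), and 424 of its exonic bases lie opposite exons of UFSP2. Whether the counting used strand is not given in the sources used here, so reads of these overlapping genes cannot be told apart.

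HIF binds DNA through a short core, and promoters of members were compared by sequence. RefSeq promoters (GRCh38.p14) matched 35 of the 39 members by symbol, with 61 starts. The letters ACGTG and GCGTG were searched on both strands in the 250 bases before each start. One of the cores was present at 68.9% of the members' starts (81.0% for HIF and HIF targets, 62.5% for glycolysis genes), against 43.2% of all 35116 starts. Some genes have several starts, so these shares weigh genes unequally. By gene, a core was present at any start in 13 of 15 HIF and HIF target genes and 17 of 20 glycolysis genes. The same held for 12945 of all 27305 genes. A gene with more starts has more chances of a core by this count. The 20 glycolysis genes had 40 starts and the 15 HIF and HIF target genes 21, against 35116 starts for all 27305 genes. The count by gene therefore favours the members, and the part of the number of starts was not tested. By start, ACGTG alone was present at 42.6% of the members' starts against 18.5% of all starts. Mean GC content was 66.0% at the members' starts and 57.2% at all starts, and its part in these shares was not tested. Shown are the 2 called genes, the regulator kinase and the transporter with the largest glycolysis changes, and the gene with the most iCLIP sites present in all 3 lists. Each run is the 250 bases 5′ of the start, 5′ to 3′ on the gene's strand, with the cores in capitals (CACGT and CACGC are the same letters on the other strand).
CA9 (chr9:35673678-35673927, plus strand): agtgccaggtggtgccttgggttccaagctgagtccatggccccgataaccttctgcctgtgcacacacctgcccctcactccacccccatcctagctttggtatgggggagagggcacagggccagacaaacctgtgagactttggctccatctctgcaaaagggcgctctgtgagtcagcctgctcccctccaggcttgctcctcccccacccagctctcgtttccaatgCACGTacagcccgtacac
EGLN3 (chr14:33951075-33951324, minus strand): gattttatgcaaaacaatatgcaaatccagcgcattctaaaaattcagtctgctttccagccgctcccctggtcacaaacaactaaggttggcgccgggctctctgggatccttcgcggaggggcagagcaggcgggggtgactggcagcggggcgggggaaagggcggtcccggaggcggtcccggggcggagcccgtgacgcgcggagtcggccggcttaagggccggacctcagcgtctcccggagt
PFKFB4 (chr3:48556804-48557053, minus strand): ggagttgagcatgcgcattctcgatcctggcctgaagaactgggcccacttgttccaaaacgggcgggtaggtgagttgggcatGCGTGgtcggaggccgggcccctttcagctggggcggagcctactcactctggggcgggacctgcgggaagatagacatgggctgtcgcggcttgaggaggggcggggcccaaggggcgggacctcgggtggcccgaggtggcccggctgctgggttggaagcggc
SLC16A3 (chr17:82228792-82229041, plus strand, 1 of 5 starts): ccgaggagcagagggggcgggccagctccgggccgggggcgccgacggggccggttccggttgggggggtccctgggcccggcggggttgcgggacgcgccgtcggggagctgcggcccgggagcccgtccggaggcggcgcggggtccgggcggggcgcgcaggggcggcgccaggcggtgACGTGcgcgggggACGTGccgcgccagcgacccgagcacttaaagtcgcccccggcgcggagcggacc
PGK1 (chrX:78103998-78104247, plus strand): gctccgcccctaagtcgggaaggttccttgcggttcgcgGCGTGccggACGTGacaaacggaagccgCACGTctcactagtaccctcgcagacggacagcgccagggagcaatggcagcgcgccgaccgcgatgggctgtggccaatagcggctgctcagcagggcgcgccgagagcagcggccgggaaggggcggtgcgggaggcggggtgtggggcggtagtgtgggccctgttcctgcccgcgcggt
The CA9 window holds 1 core, which begins 18 bases before the start. The EGLN3 window holds none, which says only that these letters are not in it. The SLC16A3 start shown holds 2 cores, both of them ACGTG, which the windows of its other starts lack. Those other windows hold from 0 to 3 cores. PGK1 holds 3 cores, clustered near the far end of the window.

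No glycolysis gene passed the edgeR group comparison, and DESeq2 called PFKFB4. Of the 21, 19 had a positive log2 fold change, from 0.07 to 1.26, and LDHA and SLC2A1 a negative one. In all, 9 were higher in all 3 same-numbered pairs against 1 lower in all 3. Among all tested genes 23.5% were higher and 32.4% lower in all 3 pairs. The median of the 21 genes by pair was -0.01 in pair 1, 0.32 in pair 2 and 0.49 in pair 3, so pair 1 showed no shift. For all genes the pair medians were -0.07, -0.03 and 0.01. Without control replicate 3 the glycolysis median went from 0.27 to 0.16, and without knockdown replicate 2 to 0.12.

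**Figure D2:**
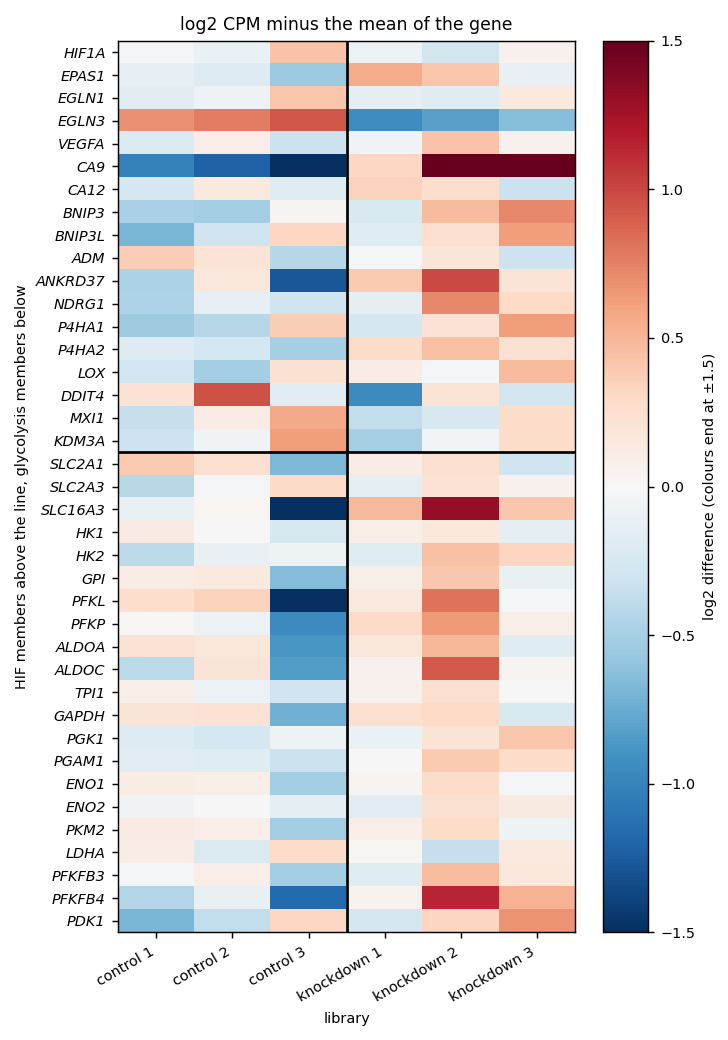
Heat map of each member's log2 CPM minus its mean over the 6 RNA-seq libraries (rows are genes, HIF genes above the horizontal line and glycolysis genes below; columns are libraries, controls left of the vertical line; blue is low and red high, with colours ending at 1.5 either way). The glycolysis genes sit low in control replicate 3, at a median of -0.51, against 0.02 and 0.01 in controls 1 and 2.

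SLC16A3 encodes MCT4, the lactate exporter. It stood at 134, 148 and 33.1 CPM in controls and 203, 362 and 192 CPM after knockdown. No libraries overlapped, but control replicate 3 was several-fold below the other controls. The log2 fold change was 1.26 ± 0.53 (SE; adjusted p = 0.317), 1.45 with the block (0.0391) and 0.89 without control replicate 3 (0.0347). SLC2A1, the GLUT1 glucose importer, stood at 483, 434 and 231 CPM in controls and 397, 435 and 299 CPM after knockdown. The SLC2A1 groups overlapped widely, the log2 fold change was -0.02 ± 0.28 (SE; adjusted p = 0.986), and its sign turned with the scaling (0.03 with DESeq2 size factors). SLC2A3, the GLUT3 importer, had 0.07 (adjusted p = 0.919).

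The 3 regulator kinases had a median log2 fold change of 0.48, which was 0.88 without control replicate 3 and 0.77 without knockdown replicate 1. PFKFB4, which makes the fructose bisphosphate activator of phosphofructokinase, stood at 21.0, 26.2 and 12.6 CPM in controls and 29.4, 62.8 and 40.9 CPM after knockdown. The groups did not overlap (1.16 ± 0.36, edgeR adjusted p = 0.17, block 0.0238, DESeq2 0.0162). PDK1, which inhibits pyruvate dehydrogenase and so holds back the entry of pyruvate into the citric acid cycle, stood at 29.9, 37.5 and 59.9 CPM and then 40.7, 60.4 and 77.0 CPM. The PDK1 groups overlapped although each pair was higher (0.48 ± 0.32, adjusted p = 0.562, block 0.0259). PDK1 had 0.88 without control replicate 3 (adjusted p = 0.0417), 0.77 without knockdown replicate 1, 0.28 without control replicate 1 and 0.30 without knockdown replicate 3. PFKFB4 had 0.97 without control replicate 3 (adjusted p = 0.0393). PFKFB3, the paralog of PFKFB4, had 0.29 (adjusted p = 0.627).

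Among the 15 enzymes 3 passed with the block, all higher, a share near the 17.3% of all genes that passed (7.04% higher and 10.3% lower). HK2, the inducible hexokinase of the first step, stood at 48.7, 59.2 and 60.5 CPM in controls and 56.3, 87.1 and 80.3 CPM after knockdown (0.41 ± 0.20, adjusted p = 0.403, block 0.0469; 0.64 without knockdown replicate 1). PFKP, the platelet-type phosphofructokinase, stood at 185, 171 and 93.8 CPM and then 222, 284 and 196 CPM (0.64 ± 0.27, adjusted p = 0.322, block 0.0317). PGAM1, the phosphoglycerate mutase, stood at 635, 622 and 566 CPM and then 702, 923 and 852 CPM (0.44 ± 0.14, adjusted p = 0.186, block 0.0394). PFKP and PGAM1 did not overlap between groups, and HK2 did. PGK1, the first ATP-yielding enzyme, at chrX:77246322-77268980, stood at 1742, 1659 and 1888 CPM in controls and 1864, 2301 and 2650 CPM after knockdown (0.37 ± 0.16, adjusted p = 0.324, block 0.0536). Its lowest knockdown library lay just under the highest control.

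The most abundant enzymes had overlapping groups. GAPDH stood at 5008, 5063 and 2649 CPM in controls and 5146, 5369 and 3716 CPM after knockdown (0.16 ± 0.27, adjusted p = 0.864). PKM2, the pyruvate kinase gene, stood at 5559, 5488 and 3582 CPM and then 5494, 6177 and 4873 CPM (0.18 ± 0.20, adjusted p = 0.767). ENO1, the main enolase, stood at 3240, 3183 and 2105 CPM and then 3080, 3630 and 2962 CPM (0.18 ± 0.19, adjusted p = 0.756). In all 3 enzymes control replicate 3 was the lowest library. LDHA, which turns pyruvate into lactate, stood at 31.0, 24.8 and 35.0 CPM and then 29.4, 22.6 and 31.7 CPM, with overlap (-0.12 ± 0.20, adjusted p = 0.868). The other 7 enzymes had log2 fold changes from 0.07 (HK1) to 0.71 (ALDOC), with adjusted p from 0.473 to 0.886.

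Per kilobase of exon, control levels were 3236 ± 1052 CPM for GAPDH, 1716 ± 395 for PKM2, 1569 ± 353 for ENO1 and 728 ± 47.8 for PGK1 (SD, n = 3). PKM2 and ENO1 were read in the same libraries and both were lowest in control replicate 3, so these SDs do not measure the spread of their difference, which was not tested. LDHA stood far lower, at 11.9 ± 2.00 CPM per kilobase. Several of these enzymes, LDHA and GAPDH among them, have near-identical processed pseudogenes, and how reads that match several places were counted is not given in the sources used here. Their counts, LDHA's above all, are therefore uncertain.

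**Figure D3:**
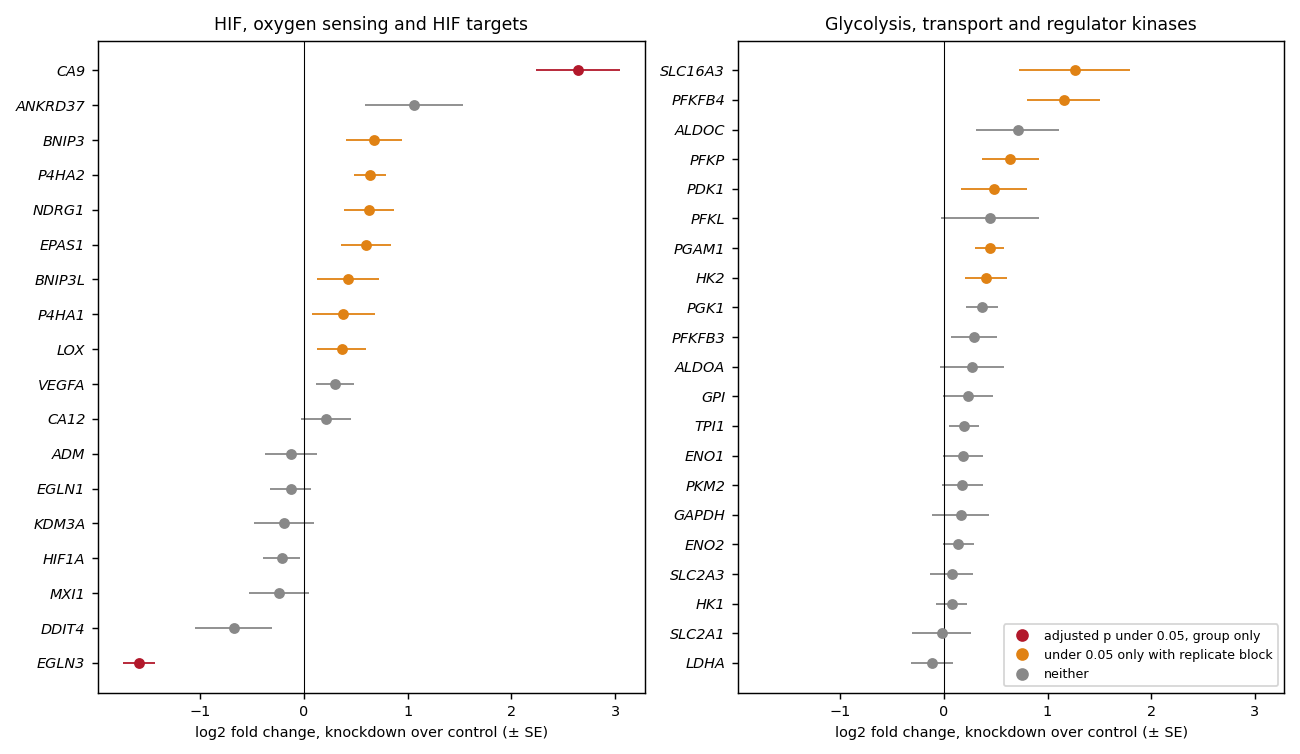
Log2 fold change of each member, knockdown against control, from the edgeR group comparison, with bars of 1 standard error and genes ordered by value in each panel. Red marks the 2 members past an adjusted p of 0.05 (EGLN3 at -1.59 and CA9 at 2.64). Orange marks the 13 that passed in edgeR on all libraries only with the replicate block, and grey the rest.

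Counted by separation of the groups alone, 9 of the 39 members had no overlap between control and knockdown libraries, 8 higher and 1 lower. Among all tested genes 22.8% did not overlap, 8.73% higher and 14.1% lower.

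The rest of the pathway was read from 3 lists with 111 genes in the files, of which 98 were tested. None passed the edgeR group comparison, with 19 of the 98 at an unadjusted p under 0.05 (2154 of all 13856 genes) and 7 called by DESeq2 (5.76% of all genes). With the block 28 passed, 12 higher and 16 lower, where 17.3% of all genes passed, 7.04% higher and 10.3% lower. Without control replicate 3 12 passed, where 7.31% of all genes did. Of 15 HIF pathway regulators 4 passed with the block, all lower, where 10.3% of all genes passed lower. ARNT, the obligate partner of HIF1A, stood at 73.7, 74.8 and 81.0 CPM in controls and 49.5, 50.2 and 53.1 CPM after knockdown (-0.59 ± 0.13, adjusted p = 0.0765, block 0.00865). ARNT2, its paralog of neural tissue, stood at 125, 123 and 100.1 CPM and then 78.7, 79.2 and 74.1 CPM (-0.59 ± 0.14, adjusted p = 0.0909, block 0.00968). VHL, which recognises hydroxylated HIF, stood at 95.5, 100.1 and 113 CPM and then 71.6, 68.7 and 79.1 CPM (-0.49 ± 0.14, adjusted p = 0.135, block 0.0123). CUL2, the scaffold of the VHL ligase, had -0.56 (adjusted p = 0.307, block 0.0302). In each of these 4 genes every knockdown library lay below every control, as was so for 14.1% of all tested genes.

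Of 42 further HIF targets, 7 higher and 6 lower passed with the block, where 7.04% of all genes passed higher and 10.3% lower. Those with the lowest p were ZNF395 (-0.85, adjusted p = 0.0629), RRAGD (-1.13, adjusted p = 0.0726), the cyclin gene CCNG2 (1.00, adjusted p = 0.119) and the EGF receptor ligand TGFA (0.89, adjusted p = 0.135). HMOX1, the heme oxygenase gene, was chosen after its values were seen. It stood at 179, 172 and 53.3 CPM in controls and 61.3, 45.4 and 19.7 CPM after knockdown (-1.68 ± 0.55, adjusted p = 0.191, block 0.00162). The groups overlapped at control replicate 3, while each pair was lower. Of 41 further genes of glucose metabolism, 5 higher and 6 lower passed with the block, with the same shares of all genes (7.04% and 10.3%) beside them. The lowest p were those of RPIA of the pentose phosphate pathway (-0.70, adjusted p = 0.0989), PGM1 of glycogen metabolism (0.50, adjusted p = 0.15), PFKFB2 (-0.63, adjusted p = 0.168) and the pyruvate dehydrogenase phosphatase PDP2 (0.53, adjusted p = 0.199).

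Exon use within the members was tested in edgeR (diffSpliceDGE), which sets an exon beside the remainder of the same gene. Of 419 tested exons in 37 members, 0 passed and 0 had an unadjusted p under 0.05. The share of all 123109 tested exons that passed was 0.0%, with 263 at an unadjusted p under 0.05. With the block 0 of the members' exons passed, 8 had an unadjusted p under 0.05, and the lowest adjusted p was 0.441, for exon 1 of HIF1A. PKM carries a pair of mutually exclusive exons of 167 bases, numbered 9 (chr15:70282417-70282583) and 10 (chr15:70281849-70282015), the first used in the adult muscle isoform and the second in the isoform of proliferating cells. Exon 9 held 4.84%, 5.16% and 9.66% of the pair's counts in controls and 4.69%, 4.98% and 6.34% after knockdown. Exon 10 held the large majority of the pair in every library. The means were 6.55% ± 2.69 and 5.34% ± 0.881 (SD, n = 3 each), a difference of -1.21 percentage points (exact two-sided permutation p = 0.6, where the smallest possible is 0.1). The difference without control replicate 3 turned to 0.338 percentage points.

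The iCLIP arm asked where MSI1 touches these transcripts. The lists held 1746795, 145718 and 208722 single-base sites, each with the authors' p-value, and they overlapped little. A shared site was defined as the same base and strand in all 3 lists, of which there were 3298 in genes on the sense strand. In total 6 of the 39 members had a shared site (15.4%), against 6.05% of tested genes. These were 2 of the 18 HIF and HIF target genes and 4 of the 21 glycolysis genes. Antisense sites within members, 178 in number, were left out.

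Of the 31 shared sites in members, 30 lay in last exons. For exonic shared sites the share of members holding one was 15.4% against 2.35% of tested genes. PGK1 had 18 sites within chrX:77268193-77268344, from 636 to 787 bases before its annotated end, in a last exon of 1038 bases. HIF1A had 5 within chr14:61284569-61284601, from 129 to 161 bases before the end of a last exon of 1326 bases. PKM2 had 4 within chr15:70278493-70278505, from 69 to 81 bases before its end, and 1 in intron 1 at position 70305930. ENO1, BNIP3 and SLC2A1 had 1 each, at 76, 504 and 843 bases from the end. The PGK1, HIF1A and PKM2 sites thus each formed a single cluster apart from the intronic one.

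**Figure D4:**
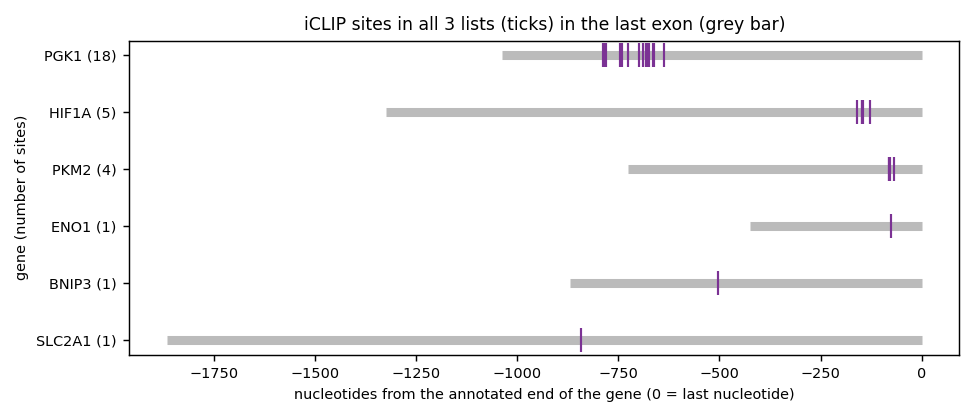
Position of the shared iCLIP sites in the last exons of the 6 members that have one, as bases from the annotated gene end (ticks, with 0 the last base) on each last exon drawn to scale (grey bar). The 18 sites of PGK1 lie 636 to 787 bases from the end, and those of HIF1A, PKM2 and ENO1 lie within 200 bases of it.

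Over all tested genes 1780 shared sites lay in the last exons of 268 genes, at a median of 1177 bases from the end, and 14.6% of them were within 200 bases. For the members the median was 675.5 bases and 33.3% were within 200 bases. Of the 18 sites of PGK1 all lay 636 to 787 bases from the end, so that this gene sets the members' median, and the sites within 200 bases are those of HIF1A, PKM2 and ENO1. Among the 6 members with a shared site PGK1, PKM2, ENO1 and HIF1A stood at 976 CPM or more in every library, and the part of abundance in these shares was not tested.

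Neither called gene had a shared site, where 6.05% of all tested genes had one. EGLN3 had 49, 4 and 1 sites in lists 1, 2 and 3, and CA9, at 4.05 to 5.86 CPM in the controls, had 12, 0 and 0. All 6 members with a shared site stood without a call in the group comparison, where 1.67% of all tested genes were called. BNIP3 was the only one of them to pass with the block, where 17.3% of all tested genes passed. Counts this small do not show whether called genes hold shared sites less often than other genes. Counts of sites over the whole gene, introns included, did not follow mRNA abundance in every gene. PGAM1 had 18, 0 and 1 sites and TPI1 17, 0 and 3, while PFKFB3 at 77.8 to 119 CPM in controls had 924, 27 and 32. In list 1, however, 807 of the PFKFB3 sites lay in introns of a gene spanning 90663 bases. PGAM1 and TPI1 span 7172 and 3525 bases and had 9 and 5 intronic sites in that list. The parts of gene length and of abundance in the site counts were not tested. A site was present for all 39 members in list 1 and for 32 in each of lists 2 and 3. When a base in any 2 of the 3 lists was enough, 24 members had a site, where 40.0% of tested genes did. Without list 1, 2 or 3 the counts were 8, 22 and 14, where 14.2%, 35.1% and 17.1% of tested genes had a site. Within 5 bases 10 members had one, where 13.3% of tested genes did. When only sites with the authors' p-value below 0.05 in all lists were kept, PGK1 alone remained, where 0.303% of tested genes did.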

How the data were processed

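Gene and exon counts were deposited by the authors for each of the 6 RNA-seq libraries as whole, unnormalized read counts. The iCLIP files hold single-base sites with a gene name and a p-value as deposited by the authors for each of 3 libraries. Coordinates are hg18, per the submitters' processing notes. Not given in the sources used here are the aligner, how reads were counted and how sites were called. Library totals were 32919299 to 47277016 gene counts.

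Genes passing filterByExpr (13856) were fitted in edgeR 4.0.16 (R 4.3.3) with TMM scaling and the quasi-likelihood test, p-values adjusted by Benjamini-Hochberg over all tested genes at 0.05. CPM values are TMM-scaled. Exons were tested with diffSpliceDGE. DESeq2 1.42.0, its size factors, no count filter, omission of each library and a block on the replicate number were alternatives, and the block with DESeq2 size factors was added after seeing the data. The replicate numbers come from the sample titles. Deviations of same-numbered libraries correlated at 0.318, 0.732 and 0.751, all above the bound of 0.1 set for calling them pairs, although control 1 correlated more with knockdown 2 (0.494) than with its own number. The deviations were taken from the mean of the 3 libraries of each group, so these correlations depend on each other. They do not establish that the same-numbered libraries are pairs. No 2 libraries agreed within sampling noise.

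The members and lists were chosen with earlier results of these data known. Values per library are given for members called with or without the block, members with a shared exonic iCLIP site and 9 anchor genes (HIF1A, EPAS1, VEGFA, SLC2A1, HK2, GAPDH, PKM, LDHA, PDK1). In the other pathway lists, up to 4 genes per list are named by lowest p. Marker lists were used only to check the cell line. On simulated counts for 13719 genes the test called 84.8% of genes changed 4-fold, 17.9% of those changed 2-fold and 1.5% of those changed 1.5-fold.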

Additional observations from a re-analysis of the deposited data

How the results depend on the processing

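The count of members called was 2. It was 15 with the replicate block, 17 with the replicate block and DESeq2 size factors, 4 with DESeq2 and 0 to 10 when single libraries were left out. It was 2 with DESeq2 size factors in edgeR and 2 without the count filter. For other pathway genes the count was 0, then 28 with the replicate block, 29 with the block and DESeq2 size factors, 7 with DESeq2, and 0 to 12 over omissions. Of all tested genes 17.3% passed with the replicate block, 16.4% with the block and DESeq2 size factors and 5.76% with DESeq2. CA9 and EGLN3 lost their calls in 5 of the 6 omissions, in which 0 to 10 of all tested genes were called, and kept them without control replicate 3. The SLC2A1 log2 fold change of -0.02 became 0.031 with the replicate block, 0.031 with DESeq2 size factors, 0.032 without the filter, 0.031 with DESeq2, and 0.077 with the block and DESeq2 size factors. Over omissions it ran from -0.22 to 0.18. Signs also turned over omissions for ADM (-0.27 to 0.047), EGLN1 (-0.24 to 0.13), GAPDH (-0.028 to 0.36), HIF1A (-0.32 to 0.033), KDM3A (-0.38 to 0.19), LDHA (-0.24 to 0.065), MXI1 (-0.45 to 0.073) and SLC2A3 (-0.090 to 0.31). The other 30 members kept their sign under every alternative run. The PKM exon 9 difference ran from -2.07 to 0.338 percentage points over omissions. Members with a shared iCLIP site numbered 6, then 24 in at least 2 lists, 10 within 5 bases, 1 below a p-value of 0.05, and 8 to 22 when a list was left out. The causes of these changes were not tested, other than that omissions use fewer libraries and a stricter or looser site rule keeps fewer or more sites. At this depth and with 3 libraries a group, the simulation recovered few changes of 2-fold or less, so the absence of calls among glycolysis genes does not bound changes of that size.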

Other observations

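LDHB was counted at 619 CPM per kilobase of exon in controls and LDHA at 11.9, and LDHA had a single iCLIP site in list 1 and none in the others. The LDHA counts and sites are uncertain, since it has near-identical pseudogenes and the treatment of reads that match several places is not given in the sources used here.

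SLC16A3 had the most iCLIP sites of any member in list 1, 1283 over a gene of 11077 bases, of which 1144 lay in introns, and 17 and 24 in the other lists. None was shared by all 3 lists.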
